A study of Arabidopsis thaliana with 8 samples.

Results

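GIGANTEA (GI, AT1G22770) was followed on 8 ATH1 oligonucleotide arrays of shoot apices from *Arabidopsis thaliana*. It was represented by 1 probe set, which matched no other gene, and it was 1 of 13074 genes with a usable probe set and 1 of the 8399 genes retained for signal. GI was chosen by its measured values in these same arrays, because its signal was low in plants with the rh10-1 mutation at 26°C and high in Col-0. Its levels are therefore given as a description and carry no test.

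GI encodes a large plant protein of the circadian clock. In Arabidopsis its transcript cycles daily, rising during the day and falling later to a low at night. It is held down in the morning by the repressors CCA1 and LHY and at night by the evening complex of ELF3, ELF4 and LUX. The protein stabilizes the F-box protein ZTL and, with FKF1, removes repressors of CONSTANS in long days, which brings forward flowering through FT.

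The arrays covered 4 genotypes at 2 growth temperatures, 1 array for each condition. The plants were wild-type Col-0, the single mutants as2-1 and rh10-1, and the double mutant as2-1 rh10-1, each grown at 26°C or 22°C. All were grown on soil in days of 16 h light and 8 h dark, and shoot apices were collected at 15 days. AS2 encodes a nuclear protein that represses abaxial leaf genes, and the as2-1 line had been outcrossed to Col-0. The rh10-1 allele is a recessive missense mutation in a DEAD-box RNA helicase of the nucleolus, found in a screen for enhancers of as2-1. A missense allele can leave its transcript in place, and so the signal of RH10, which was 394.1 in rh10-1 and 261.1 in the double mutant against 347.8 in Col-0 at 26°C, is no check of the labels. The corresponding signals at 22°C were 677.1, 553.8 and 352.2.

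The hour of harvest is not given in the sources used here. For a transcript that cycles daily, an hour's difference between harvests, a genotype and a temperature cannot be told apart with 1 array per condition. The 4 arrays at each temperature also formed a set of their own, and any batch that followed temperature cannot be told apart from it. With no replicates, no SD can be given, and each ratio of GI is set instead against the ratios of all 8399 genes between the same arrays. These shares of genes describe pairs of arrays and are not tests.

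The deposited signals had been scaled, with trimmed means between 198.1 and 198.4 and medians between 69.65 and 79.9. The apex markers with a named probe set were 3 of 16. YAB3, an abaxial identity gene, had signals from 270.0 to 508.1 and PHV, an adaxial identity gene, from 214.2 to 494.2, while CLV3, a stem cell marker, was low on every array, from 0.9 to 26.8. Of the 5 root markers only the root hair expansin EXPA7 had one, with signals from 1.0 to 11.6, and none of the 5 floral markers had one. In such bulk tissue, fewer cells of a type and less RNA per cell cannot be told apart.

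Among the 26°C arrays, Col-0 gave a GI signal of 482.8, as2-1 one of 420.4, rh10-1 one of 183.8 and the double mutant one of 103.6. The lines that carried wild-type RH10 were high, the rh10-1 single mutant lay well under them, and the double mutant was the lowest. Within each array, GI stood at percentile 87.4 of all probe sets (Col-0), 85.3 (as2-1), 68.3 (rh10-1) and 56.2 (double mutant).

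Among the 22°C arrays, Col-0 gave a GI signal of 81.7, as2-1 one of 63.3, rh10-1 one of 103.1 and the double mutant one of 109.3. The order of the lines was turned, with both lines that had the rh10-1 mutation above both lines without it. The 4 signals ran from 63.3 to 109.3. The percentiles were 51.4 (Col-0), 47.3 (as2-1), 58.3 (rh10-1) and 58.3 (double mutant).

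**Figure D1:**
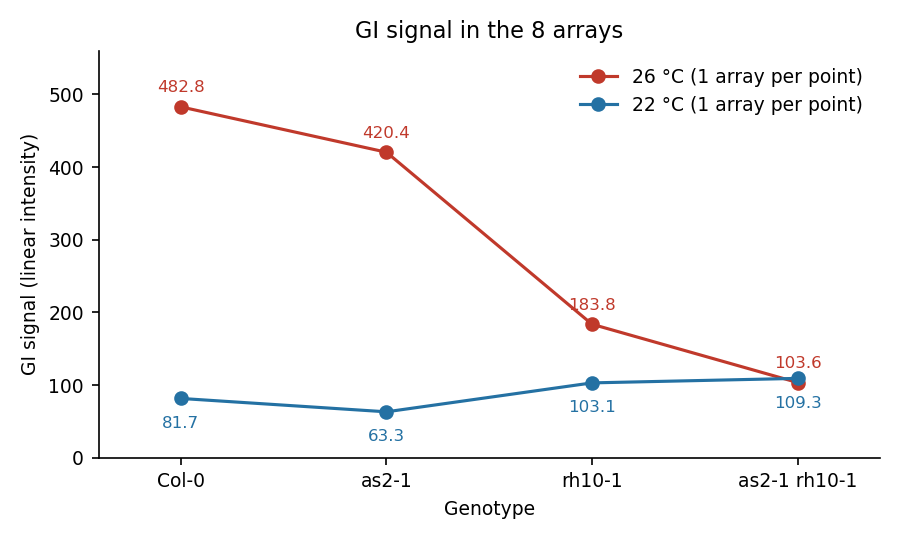
GI signal for each genotype at 26°C and at 22°C, 1 point for each array. The Col-0 and as2-1 arrays at 26°C stand apart from all others at 482.8 and 420.4, and the remaining 6 arrays lie between 63.3 and 183.8.

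Ordered by level over the 8 arrays, GI was highest in Col-0 at 26°C and then in as2-1 at 26°C. These neighbours differed by 0.20 on the log2 scale, a distance that 60.5% of all genes reached or passed between the same arrays. The step from as2-1 to rh10-1 at 26°C was the largest between neighbours, 1.19 on the log2 scale, which 6.74% of genes reached. Below it came the double mutant at 22°C, the double mutant at 26°C, rh10-1 at 22°C, Col-0 at 22°C and as2-1 at 22°C. The steps between these were 0.75 or less on the log2 scale, each reached by at least 32.5% of all genes, and they give no order that stands out from the general distance between 2 arrays.

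The first comparison was of each mutant with Col-0 at 26°C. The log2 ratio of GI to Col-0 was -1.39 in rh10-1, a 2.63-fold lower signal, and 4.49% of genes were at least as far from 0. In as2-1 rh10-1 it was -2.22, a 4.66-fold lower signal, and 2.82% of genes were as far. In as2-1 alone it was -0.20, within the general distance, since 60.5% of genes were at least as far from 0.

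The same drop was present in the as2-1 background. GI was 4.06-fold lower in as2-1 rh10-1 than in as2-1 at 26°C, a log2 ratio of -2.02, and 3.26% of genes were as far from 0. Against rh10-1, the double mutant was 1.77-fold lower, a log2 ratio of -0.83 that 14.6% of genes reached. The log2 ratio of the double mutant to Col-0 was lower than the sum of those of the single mutants by -0.63. The rank of GI from the lowest ratio among 8399 genes was 187 in rh10-1, 124 in the double mutant against Col-0 and 133 in the double mutant against as2-1. GI was thus among the lower genes at this temperature, and many genes had larger decreases.

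At 22°C the ratios to Col-0 were small. The log2 ratio was 0.34 in rh10-1, which 54.0% of genes reached, and 0.42 in the double mutant, which 39.7% reached. In as2-1 it was -0.37, reached by 32.5%. The widest gap at this temperature was between as2-1 rh10-1 and as2-1, which differed by 0.79 on the log2 scale with GI 1.73-fold higher in the former, a distance that 8.64% of genes reached. The double mutant and rh10-1 differed by 0.08 on the log2 scale.

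Averaged over the AS2 and as2-1 backgrounds, the log2 effect of rh10-1 on GI was -1.71 at 26°C and 0.56 at 22°C. The median size of that effect over all genes was 0.262 at 26°C and 0.254 at 22°C. The difference between the effects of GI was -2.27, the lowest but 79 of the 8399 genes, where the median gene had -0.01 and the median size was 0.374. The corresponding mean effects of as2-1 on GI were -0.51 and -0.14.

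**Figure D2:**
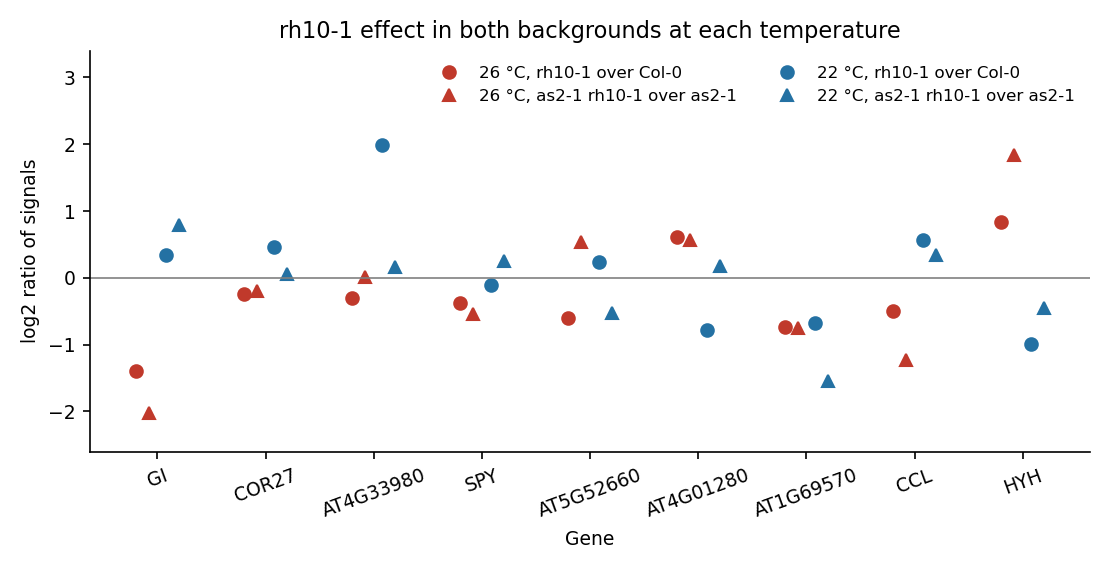
Log2 effect of rh10-1 at 26°C and at 22°C for GI and other genes. Averaged over the AS2 and as2-1 backgrounds, the effect on GI was -1.71 at 26°C and 0.56 at 22°C.

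The second comparison was between temperatures within a genotype. In Col-0 the GI signal was 5.91-fold higher at 26°C than at 22°C, a log2 ratio of 2.56, and 2.92% of genes were at least as far from 0. In as2-1 it was 6.64-fold higher, a log2 ratio of 2.73, with 2.83% of genes as far. In rh10-1 the log2 ratio was 0.83, which 33.8% of genes reached, and in the double mutant it was -0.08, which 93.2% reached. GI thus differed widely between temperatures in the lines with wild-type RH10, by an amount common among other genes in rh10-1, and hardly in as2-1 rh10-1. Over all 8 arrays the log2 range of GI was 2.93, and 763 genes, 9.09% of those retained, had a range as wide, against a median range of 1.22.

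Other genes linked to the clock were looked up on the same arrays, but most of them had no named probe set here. Whether each of these transcripts varies with the hour was not tested. Of 61 genes in 7 lists of clock, photoperiod and related genes, set by locus, 6 were measured and retained. These were 2 of 14 morning clock genes, 1 of 6 partners of the GI protein, 1 of 14 genes of photoperiodic flowering and 2 of 6 outputs of the evening clock. None of the 4 daytime pseudo-response regulators, of the 9 other evening clock genes or of the 8 thermal and light growth regulators had a usable named probe set. The central genes of the clock, CCA1, LHY, TOC1, ELF3, ELF4 and LUX among them, were therefore not analysed here.

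For the temperature difference fitted across all 4 genotypes with limma, 5 of the 6 list genes rose at 26°C and 0 fell, at a Benjamini-Hochberg adjusted p under 0.05. Over all 8399 genes, 21.4% were called higher at 26°C and 17.1% were called lower. The balance over all genes turned with the scaling, from 1801 higher and 1438 lower to 1588 and 1628 after quantile normalization and 1533 and 1735 after median centring. The median log2 difference of the list was 1.38, and that of all genes was 0.06. The list is small, and these counts describe its 6 members only.

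Both measured evening outputs were higher at 26°C in every genotype. COR27, a cold-regulated gene whose product acts in the clock, read 526.4 on the Col-0 array at 26°C, 811.8 on that of as2-1, 444.7 on that of rh10-1 and 705.0 on that of the double mutant. At 22°C its signals in the same order were 102.1, 112.7, 140.1 and 117.4. The rh10-1 lines kept high COR27 signals at 26°C where their GI signals were low. The log2 temperature difference of COR27 was 2.37 ± 0.20 (SE; limma adjusted p = 1.3e-04). AT4G33980, taking Col-0, as2-1, rh10-1 and the double mutant in turn, had signals at 26°C of 210.2, 237.3, 170.8 and 239.3, and at 22°C of 23.4, 49.5, 92.6 and 55.4 in that order. Its log2 difference was 2.11 ± 0.32 (SE; limma adjusted p = 0.00135).

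SPY, an O-fucosyltransferase whose protein binds GI in Arabidopsis, had 26°C signals of 318.4 (Col-0), 336.8 (as2-1), 245.7 (rh10-1) and 230.6 (double mutant). At 22°C they were 173.8, 133.0, 161.5 and 157.8 in that order. At 26°C the rh10-1 lines were the lower pair. The log2 temperature difference was 0.84 ± 0.18 (SE; limma adjusted p = 0.00634), a smaller span than that of COR27.

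The photoperiod gene AT1G69570 had low signals, from 21.6 to 47.3 at 26°C and from 4.8 to 21.5 at 22°C. Its log2 difference was 1.86 ± 0.60 (SE; limma adjusted p = 0.0378), and 3 of its 22°C signals were under the 20th percentile of their array. The call was lost without any 1 of the 8 arrays, and over all alternatives the limma adjusted p ran from 0.00493 to 0.131. Of the morning clock genes, AT5G52660 had signals from 76.2 to 126.4 at 26°C and from 39.7 to 65.2 at 22°C. Its log2 difference was 0.89 ± 0.26 (SE; limma adjusted p = 0.0256), and the call was lost in 6 of 14 alternatives, those without any 1 array other than the rh10-1 arrays, with adjusted p from 0.0229 to 0.0994 over all 14.

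AT4G01280, the other morning clock gene, was not called, with a log2 difference of 0.64 ± 0.26 (SE; limma adjusted p = 0.0763). Its 26°C signals were 88.7 (Col-0), 112.6 (as2-1), 135.7 (rh10-1) and 167.0 (double mutant), and at 22°C they were 111.0, 68.1, 64.7 and 77.4 in that order. Col-0 went the other way from the mutants, with a log2 ratio of -0.32. Without either Col-0 array the gene was called. Both omissions gave the same log2 difference, 0.97, because either leaves Col-0 out of the temperature difference.

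**Figure D3:**
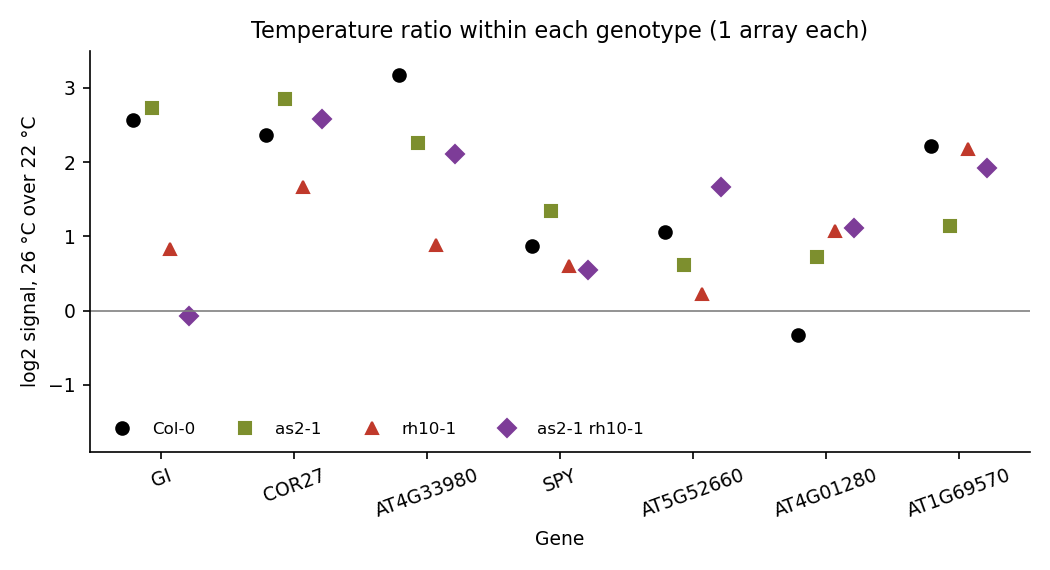
Log2 ratio of the signal at 26°C to that at 22°C in each genotype for GI and the 6 measured clock and photoperiod genes, 1 ratio of 2 arrays per point. GI falls from 2.56 in Col-0 and 2.73 in as2-1 to 0.83 in rh10-1 and -0.08 in as2-1 rh10-1, while COR27 stays at 1.67 or above in all 4 genotypes.

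None of the 6 list genes had a rh10-1 effect that differed between temperatures in the limma fit, where 0.56% of all genes (47) were called and 1201 genes had an unadjusted p under 0.05. The count of 47 ran from 0 to 535 with 1 array left out, and none of the 6 was called in any of those fits. The median log2 difference of the list was -0.18, against -0.01 for all genes. COR27 had one of -0.48 ± 0.28 (SE; limma adjusted p = 0.469), AT4G33980 one of -1.22 ± 0.53 (SE; limma adjusted p = 0.328) and SPY one of -0.53 (limma adjusted p = 0.435). AT4G01280 had one of 0.89 (limma adjusted p = 0.349), of the opposite sign. These misses leave the size of each difference wide, and do not show that the list genes lacked one.

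Counted past 2-fold of Col-0 in either direction at 26°C, the list held 0 of 6 genes in as2-1, where 6.18% of all genes passed, 0 of 6 in rh10-1, where 8.69% passed, and 0 of 6 in the double mutant, where 14.8% passed. At 22°C it held 2 of 6 in as2-1 against 5.14% of all genes, 1 of 6 in rh10-1 against 10.2%, and 1 of 6 in the double mutant against 8.99%. AT4G33980 was the gene past 2-fold in all 3 mutants at 22°C, where its Col-0 signal was the lowest of the 8, and AT1G69570 joined it in as2-1. The GI ratios of -1.39 and -2.22 at 26°C had no counterpart among these 6 genes. How far the hour of collection took part in them was not tested.

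The genes most like GI were then ranked by Pearson's r of log2 signal over the 8 arrays, among 8398 other genes. The points share their arrays, their scaling and the difference between temperatures, and r is given as a description. In all, 72 genes had r above 0.9 and 69 had r under -0.9, and 12 of the 72 also had a log2 range of 2 or more. The 10 highest were AT4G38490 (0.971), bZIP18 (0.967), AT3G07010 (0.966), TUB5 (0.964), AT3G44610 (0.959), AT4G30660 (0.959), AT4G10930 (0.955), AT1G21580 (0.954), AT1G18700 (0.953) and AT3G06770 (0.948). bZIP18 is a basic leucine zipper transcription factor and TUB5 a beta-tubulin. None of the 10 was on the clock lists, but these held only 6 of the 8398 genes compared, so that this absence says little. Their log2 ranges ran from 0.65 to 3.11, so that most followed the shape of the GI profile over a narrower span.

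AT3G07010 had a span as wide as that of GI. Its 26°C signals were 618.6 (Col-0), 935.0 (as2-1), 363.5 (rh10-1) and 210.0 (double mutant), and at 22°C 182.8, 108.1, 163.9 and 175.3 in that order. As with GI, Col-0 and as2-1 at 26°C stood apart from the rest and the double mutant at 26°C lay close to the 22°C arrays.

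The 5 genes of the lowest r were AT1G11220 (-0.975), AT5G16010 (-0.965), HYH (-0.958), AT1G20410 (-0.957) and AT1G27030 (-0.954). HYH, a bZIP factor of light signalling related to HY5, had 26°C signals of 27.2 (Col-0), 23.6 (as2-1), 48.7 (rh10-1) and 84.8 (double mutant). At 22°C they were 206.5, 145.3, 103.5 and 106.2 in that order. HYH was low in Col-0 and as2-1 at 26°C, the arrays where GI was high, and its temperatures came closest in the double mutant.

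**Figure D4:**
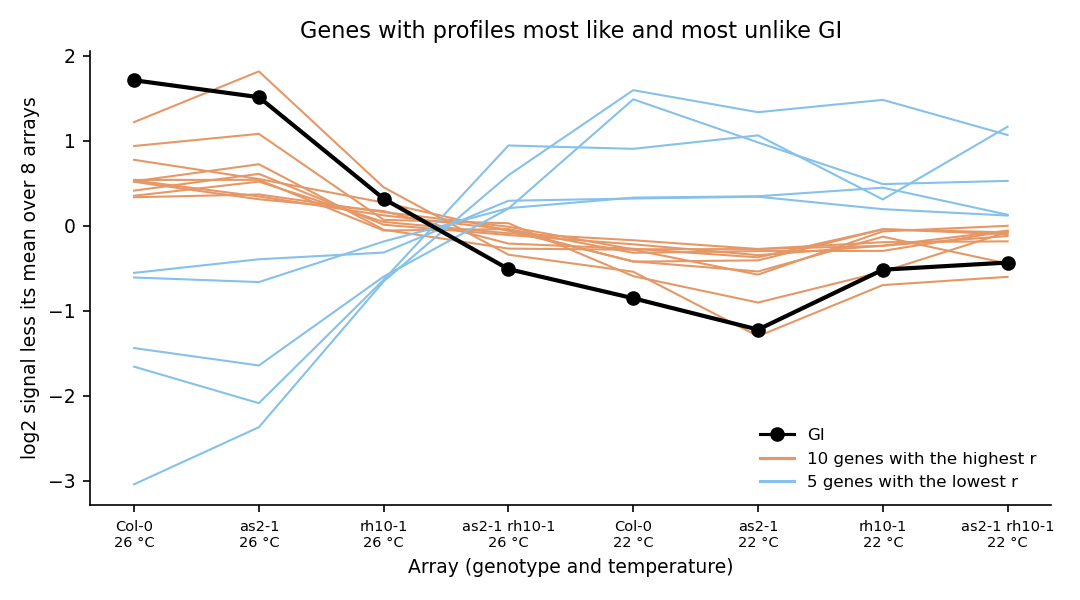
Log2 signal of GI and of named genes over the 8 arrays, each centred on its own mean, with the 26°C arrays on the left. AT3G07010 follows GI (r = 0.966) and HYH runs opposite to it (r = -0.958).

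Likeness was also read within temperatures. After the mean of each temperature was subtracted, the 10 genes above kept r between 0.894 and 0.951 and the 5 opposite genes between -0.947 and -0.905. The 5 nearest genes by this measure were AT4G09160 (0.997), AT2G36410 (0.979), AT2G01970 (0.975), AT4G32800 (0.971) and AT2G19710 (0.971), none of which was among the 10 of the highest plain r. AT4G09160 had 26°C signals of 330.5 (Col-0), 273.6 (as2-1), 123.5 (rh10-1) and 61.7 (double mutant), and at 22°C 176.0, 140.7, 218.1 and 221.6 in that order. It thus had the same order of genotypes as GI within 26°C and within 22°C. Its Col-0 and as2-1 signals at 22°C were, however, above its double mutant signal at 26°C, and its plain r with GI was 0.554.

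One further clock-regulated transcript was singled out after its values had been seen, and its levels are given as a description. CCL, whose short-lived transcript is under clock control in Arabidopsis, had 26°C signals of 5429.9 (Col-0), 5701.6 (as2-1), 3858.7 (rh10-1) and 2431.4 (double mutant). At 22°C they were 1036.6, 1307.2, 1529.8 and 1659.4 in that order. At 26°C both rh10-1 lines were under Col-0 and as2-1 for CCL, as for GI, and at 22°C both rh10-1 lines were again above Col-0 and as2-1. Its r with GI was 0.937, the 15th highest, and 0.911 after the temperature means were subtracted. Its log2 ratio to Col-0 at 26°C was -0.49 in rh10-1, where GI had -1.39, and -1.16 in the double mutant, where GI had -2.22. Against as2-1, the double mutant had -1.23 for CCL and -2.02 for GI. Of 11 genes of starch breakdown, also listed after the data had been seen, 2 were measured. PWD, which phosphorylates starch, had signals from 582.4 to 777.3 at 26°C and from 538.8 to 556.6 at 22°C, and DPE1, which works on its maltotriose, from 397.9 to 578.6 and from 317.4 to 380.7.

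The neighbours of GI on the chromosome were also read. Of the 5 protein-coding genes on each side, 7 had a usable probe set and 4 were retained. The genes directly beside GI, AT1G22760 and AT1G22780, had no usable named probe set, so that the nearest neighbours were not read. Their log2 ratios of the double mutant to Col-0 at 26°C were -0.53 for AT1G22730, 0.51 for AT1G22750, 0.53 for AT1G22790 and 0.32 for AT1G22800, and their r with GI lay between -0.72 and 0.62. None of the 4 was near the GI ratio of -2.22, a distance from 0 that only 2.82% of all genes reached.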

How the data were processed

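Biotin-labelled cRNA from total RNA of shoot apices was hybridised by the authors to ATH1 arrays, 1 for each of 8 conditions. The deposited values were signal intensities on a linear scale, summarised for each of 22746 probe sets with the GCOS software and scaled by array. The scaling target is not given in the sources used here. Arrays were grouped by their labels, and every deposited sample column was used (0 left unmatched).

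Probe sets were named through the platform annotation: 14016 had a gene symbol or locus, 13513 of them 1 gene, and after removal of probe sets that can cross-hybridise (_s_at, _x_at) 13230 were used for 13074 genes. Loci came from the RefSeq gene table through the gene ID, which gave none for 70 probe sets, and these kept the annotation's symbol. For 145 genes with several probe sets, the one of the highest mean log2 signal was taken. There were 9 zero signals, set to 0.1, and log2 was taken. Genes above the 40th percentile in at least 1 array (8399) were retained.

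Temperature was fitted over all 8 arrays with genotype as a covariate (3 residual degrees of freedom). The rh10-1 by temperature term was fitted with as2-1, rh10-1, temperature and as2-1 by temperature (2 residual degrees of freedom). Both used limma 3.58.1 in R 4.3.3 with an intensity trend and Benjamini-Hochberg adjustment over all genes retained (threshold 0.05). No condition was repeated, and in the temperature fit the p-values rest on the spread of the temperature difference between genotypes. In the rh10-1 by temperature fit they rest on the departure of the double mutant from the sum of the single mutants. A joint effect of as2-1 and rh10-1 would therefore widen the error of that fit. Python 3.11.15, pandas 2.3.3, numpy 2.4.6, scipy 1.17.1 and matplotlib 3.10.9 served for the rest, and the fits were tested on simulated data. The number of arrays limits the precision.

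GI, the gene lists and the comparisons were chosen with earlier results of these data known. The lists were set by locus from general knowledge and were not checked against an annotation. Named genes were GI, list members with values, the 10 highest and 5 lowest genes by Pearson's r with GI, the 5 highest after subtracting temperature means, RH10 and AS2. AS2 had no named probe set, and CCL and the starch genes were added after their values were seen. Alternatives were quantile normalization, median centring, low signals raised to the 20th percentile, the filter dropped or moved to the median, no intensity trend, Spearman's rho, probe sets without a name, and leaving out each array. In the temperature fit, leaving out either array of a genotype gives the same log2 difference, so that such fits are not separate evidence. No genome sequence or probe sequence was used here.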

Additional observations from a re-analysis of the deposited data

Results flagged for a closer look

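For GI the log2 effect of rh10-1 was negative at 26°C and positive at 22°C in both the AS2 and as2-1 backgrounds, and the effects differed by -2.27. This difference was not tested. COR27 showed the same turn of sign with a difference of -0.48, for which the limma adjusted p was 0.469. CCL also showed it, with a difference of -1.31. Because CCL was singled out after its values were seen, this difference is given as a description and carries no test. A negative effect at 26°C and a positive one at 22°C in both backgrounds was present in 672 of 8399 genes (8.0%), and opposite signs in either order in 1514 (18.0%).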

How the results depend on the processing

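Each of the 14 log2 values of GI kept its direction under quantile normalization and median centring, and moved by less than 0.237. That limit is the SD that the limma trend over all genes gave at the signal of GI in the rh10-1 by temperature fit. It is not a spread of GI between replicates. The floor at the 20th percentile could not move these values, because GI was at percentile 47.3 or higher on every array. The largest move was 0.194, for the temperature ratio in rh10-1. GI had 1 probe set, so that a mean over several could not be tried. No paired analysis was possible because each condition had 1 array and the labels give no shared replicate numbers, although the temperature fit, with genotype as a covariate, set the arrays of each genotype against each other. Leaving out each array in turn gave 1180 to 1801 genes higher at 26°C and 874 to 1459 lower, against 1801 and 1438. The lowest count of higher genes was without as2-1 at 26°C, and counts of lower genes were 907 without as2-1 at 26°C, 874 without as2-1 at 22°C and 941 without rh10-1 at 22°C. The rh10-1 by temperature calls, 47 as reported, were 26 after quantile normalization, 23 without the filter and 0 without the intensity trend. They ran from 0 to 535 with 1 array left out, being 0 without any 1 of the 22°C arrays, and at 26°C 535 without Col-0, 187 without as2-1, 532 without rh10-1 and 188 without the double mutant. Without the filter on low signals, the genes past 2-fold of Col-0 numbered 3065, 3242 and 3775 at 26°C and 2789, 3302 and 3171 at 22°C in as2-1, rh10-1 and the double mutant, against 519, 730, 1245, 432, 858 and 755. The 10 genes most like GI shared 1 with the list by Spearman's rho, 0 with that after subtracting temperature means and 5 with that over all probe sets. The cause of these moves was not tested. Among other values, 273 kept their outcome, called or not called, 4 gained a call and 34 lost one. The 273 include genes that were not called in the first place. In the main rh10-1 by temperature fit none of these genes was called.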
